A study of Hydra oligactis with 61 samples.

Results

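3 of the 23396 transcripts in the *Hydra oligactis* count table are described here, each named after the protein it matches best: a match of matrix metalloproteinase-24 (MMP-24, R039030c1g1_i01), a match of the zinc metalloproteinase nas-6 (R038737c0g3_i04) and a match of nas-8 (R034130c1g1_i04). They were chosen by identifier, with results of these data known. Which values led to the choice is not recorded. From the study's tables that list each transcript, those taken as used for MMP-24 were its changes at the aboral-facing wound, its response to alsterpaullone there and its level in the mature foot, and those taken as used for nas-6 and nas-8 were their levels in the mature head and at the oral-facing wound, above all at 48 h. Comparisons of those kinds are given below as descriptions with no test, apart from those between the wounds before 48 h for nas-6 and nas-8. These were tested although they hold oral-facing wound levels of the kind taken as used in the choice. The remaining tests are of other comparisons, which share libraries with the described ones. No test is therefore independent of the choice.

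Matrix metalloproteinases and astacins, the family of the nas proteins, are zinc-dependent enzymes that cut proteins of the extracellular matrix, and many astacins also work as digestive enzymes. The names nas-6 and nas-8 come from the nematode *Caenorhabditis elegans* (nematode astacin), another match of the nas-8 transcript is SpAN, an astacin of sea urchin embryos, and human MMP-24 is anchored in the cell membrane, so whether the *Hydra* proteins are secreted is not something RNA levels can show. In *Hydra* the extracellular matrix is the mesoglea, a thin sheet between both cell layers that is broken and rebuilt when the polyp is cut. Cnidarian gland cells of the gastric lining release digestive proteases.

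RNA was measured in polyps of the Innsbruck 12 strain of *H. oligactis*, a species that regrows a head readily and a foot less reliably, by paired-end sequencing of polyadenylated RNA. The comparison of wounds asks how tissue facing the missing foot differs from tissue facing the missing head, and that with alsterpaullone asks what raised Wnt signalling does to the former. Each of the 61 libraries pooled tissue of 30 animals, so a library at the aboral-facing wound can mix polyps that would and would not have regrown a foot. The values are expected counts scaled to counts-per-million (CPM).

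Polyps were starved, cut through the middle of the body, and the tissue beside the cut was taken after 0, 3, 12, 24 or 48 h (hours post amputation, hpa). Foot regeneration (FR) is the wound of the upper piece, which faces the missing foot, and head regeneration (HR) is that of the lower piece, which faces the missing head. ALP is the aboral-facing wound of polyps kept in 5 µM alsterpaullone, a kinase inhibitor that activates Wnt signalling, for the first 3 h, and it was sampled at 3, 12, 24 and 48 hpa, with no 0 hpa group. Head is the uninjured head, cut just below the tentacles, and Foot is the uninjured peduncle with the basal disk. All groups other than ALP, Head and Foot included, carry the solvent DMSO in their labels. FR and HR had 7 libraries each at 0 hpa and 3 at each later time, ALP had 3 at 3, 12 and 24 hpa and 4 at 48 hpa, and Head and Foot had 5 each.

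The libraries held from 14550984 to 26108358 counts, with a median of 18266765 counts. All 3, 12 and 48 hpa libraries belonged to batch 1 and all 24 hpa libraries to batch 2, with both batches at 0 hpa. Changes from 0 hpa to any later time, 24 hpa included, therefore depend on the batch term, which the 0 hpa libraries set. Markers went with the tissue labels: the summed level of 3 head genes (wnt3, wnt7 and brachyury1) was 247 to 289 CPM in Head and 4.01 to 5.74 CPM in Foot, and that of 4 foot genes (nk2, dlx2, gata3 and kiaa1958) was 412 to 439 CPM in Foot and 4.34 to 7.92 CPM in Head. In every Foot library wnt3 was at 0, and in every Head library kiaa1958 was at 0. In these sums library 1 of ALP at 12 hpa stood apart from the others of its group: the head genes summed to 14.53 CPM against 8.58 and 7.1 CPM in libraries 2 and 3, and 6 nerve peptide precursors summed to 139.7 CPM against 93.0 and 85.56 CPM. Results of nas-6 and nas-8 in that group are therefore given with and without it, and those of MMP-24 at 0 and 3 hpa in HR likewise for a library low in MMP-24 in each.

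The matches differed most in where they were high. MMP-24 was present at every site and 13-fold apart between its highest and lowest group means, whereas nas-6 and nas-8 were close to absent from the Foot, low in the body column and at 727 CPM or more only in the Head. Another nas-6 match (R035775c1g1_i01) averaged 736 CPM in Foot and 903 CPM in Head. Other MMP-24 matches averaged 238 and 83.4 CPM (R014825c0g2_i02) and 33.1 and 34.4 CPM (R020081c0g1_i01) there. In FR at 0 and 3 hpa those MMP-24 matches averaged 55.0 and 59.0 CPM and 16.2 and 17.5 CPM. Other nas-8 matches averaged 7.81 and 865 CPM (R036334c0g2_i02) and 0.0354 and 79.3 CPM (R036451c0g2_i03) in Foot and Head. In whole pieces of tissue such as these, fewer cells of a type and less RNA per cell cannot be told apart.

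MMP-24 was highest in the Head, at 435, 498, 533, 476 and 527 CPM in the 5 libraries. The next group, FR at 3 hpa, reached 263 to 322 CPM, so these groups did not overlap. Its lowest group was FR at 0 hpa, from 23.8 to 46.9 CPM with a median of 41.3 CPM. In descending order of the mean, with the hours after each group, these ran Head, FR 3, HR 3, ALP 12, Foot, ALP 24, HR 48, HR 12, ALP 3, FR 12, HR 24, FR 48, HR 0, ALP 48, FR 24 and FR 0. Of the 15 pairs of neighbours 12 overlapped, and the 3 gaps lay below Head, below Foot and below HR at 24 hpa.

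Levels of nas-6 were 797, 743, 794, 727 and 775 CPM in the 5 Head libraries and 0.172 to 0.310 CPM in Foot, where 3 to 5 reads were counted per library. The mean in Head was 767 CPM ± 31.1 (SD, n = 5), and the next group, ALP at 12 hpa, averaged 21.5 CPM ± 24.1 (SD, n = 3), or 2.80% of it. Below these came HR 48, ALP 24, ALP 48, FR 24, FR 48, FR 3, FR 0, ALP 3, FR 12, HR 24, HR 3, HR 0, HR 12 and Foot. Of the 15 neighbouring pairs 10 overlapped, and the 5 gaps lay below Head, below HR at 48 hpa, below ALP at 24 hpa, below FR at 24 hpa and below HR at 12 hpa.

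Levels of nas-8 were 857, 835, 852, 868 and 901 CPM in Head and 0.0621 to 0.492 CPM in Foot, where 1 to 9 reads were counted per library. The Head mean of 862 CPM ± 24.5 (SD, n = 5) was followed by ALP at 12 hpa with 36.0 CPM ± 17.7 (SD, n = 3), and then by HR at 48 hpa, a block of FR and ALP groups (FR 24, ALP 24, ALP 48, FR 3, FR 0, FR 48, FR 12 and ALP 3 hpa), the earlier HR groups (3, 0, 24 and 12 hpa) and Foot. Of the 15 neighbouring pairs 9 overlapped, and the 6 gaps lay below Head, FR at 48 hpa, FR at 12 hpa, ALP at 3 hpa, HR at 24 hpa and HR at 12 hpa. Every FR group was above every HR group other than HR at 48 hpa.

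**Figure D1:**
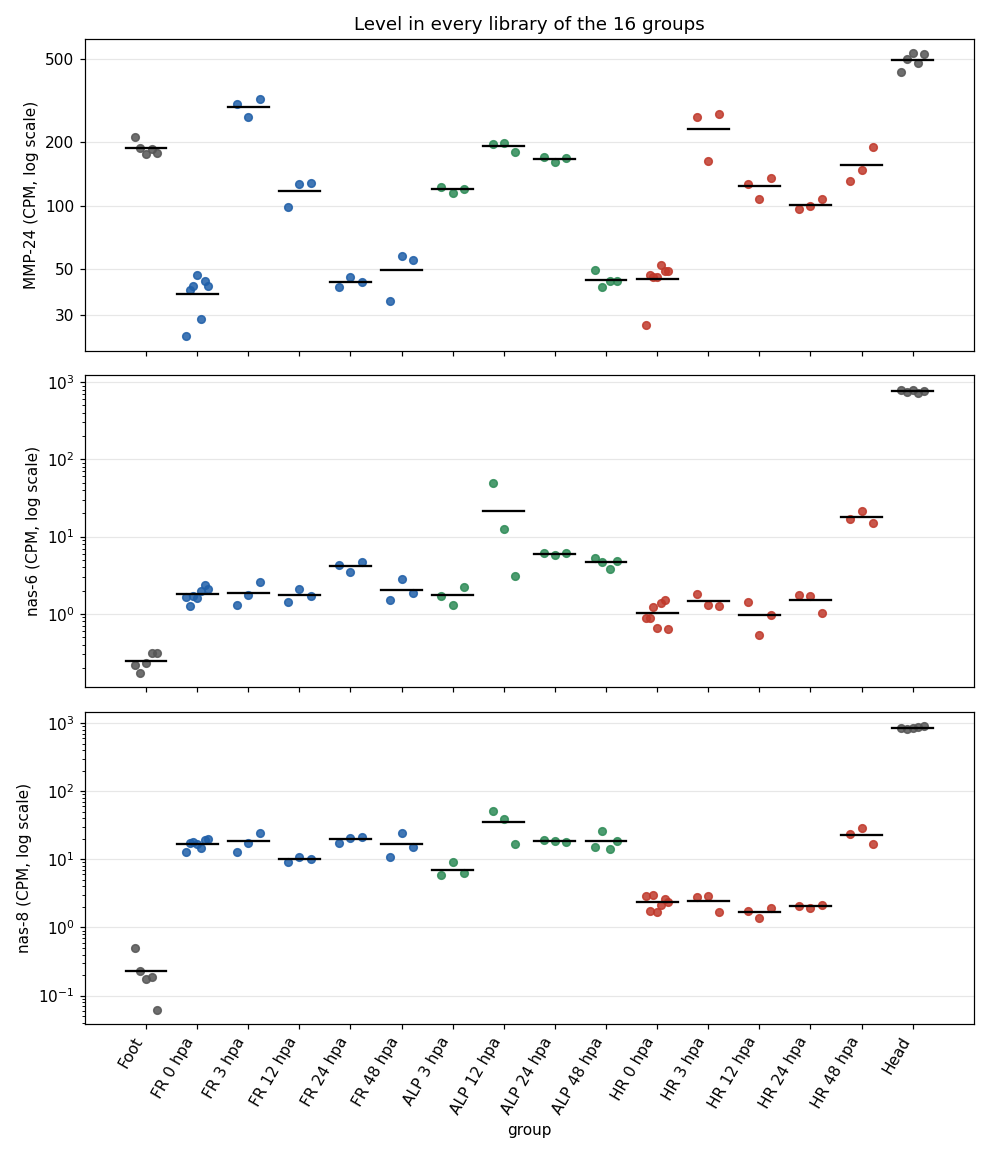
Level of the 3 transcripts in every library (points, CPM on a log scale) of the 16 groups, with the group mean as a bar. MMP-24 lies between 23.8 and 533 CPM, while nas-6 and nas-8 lie at 727 to 901 CPM in the 5 Head libraries and at 51.6 CPM or lower in all others.

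Levels were compared between the transcripts only per length. The deposited FPKM (fragments scaled to transcript length and library size) cover FR and HR other than HR at 3 hpa, and elsewhere the CPM were divided by the length that the 2 scales imply, 1.53 kb for MMP-24, 0.772 kb for nas-6 and 0.715 kb for nas-8. At 0 hpa in FR the means were 25.5 FPKM ± 5.65 for MMP-24, 2.41 FPKM ± 0.553 for nas-6 and 24.6 FPKM ± 4.14 for nas-8 (SD, n = 7 each). MMP-24 and nas-8 were thus alike in level at the aboral-facing cut, and nas-6 was lower than either in every library. At 0 hpa in HR the means were 31.0 FPKM ± 5.90, 1.39 FPKM ± 0.486 and 3.45 FPKM ± 0.769 in the same order. By 48 hpa in HR they were 104 FPKM ± 19.7, 23.3 FPKM ± 4.45 and 33 FPKM ± 9.02 (SD, n = 3 each).

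The question for MMP-24 at the oral-facing wound was whether it rose there after the cut. It did at all 4 times. Its mean was highest at 3 hpa, although library 2 of that group, at 163 CPM, lay within the 131 to 191 CPM of 48 hpa. HR libraries at 0 hpa ran from 27 to 51.9 CPM with a median of 46.9 CPM. At 3 hpa they held 263, 163 and 272 CPM. None of the 3 overlapped with 0 hpa, and the log2 fold change was 2.44 ± 0.15 (SE; adjusted p = 4.7e-19 by edgeR's quasi-likelihood test, as for every adjusted p below), a call that 10.6% of the 17676 tested transcripts shared. It was 2.64 without library 2 of HR at 3 hpa and 2.31 without library 1 of HR at 0 hpa, the libraries lowest in MMP-24 in their groups. Libraries at 12 hpa held 127, 108 and 135 CPM, again above all libraries at 0 hpa (log2 fold change 1.51 ± 0.15, adjusted p = 3.1e-11; 11.6% of transcripts called).

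The level did not return to that at the cut. HR libraries at 24 hpa held 96.3, 99.1 and 107 CPM (1.09 ± 0.16 above 0 hpa on the log2 scale, adjusted p = 1.6e-07; 23.8% of transcripts called), and within batch 2 alone the log2 ratio of the means was 1.02. At 48 hpa they held 131, 148 and 191 CPM, higher than any library at 24 hpa, although these times lie in different batches. The change from 0 hpa was 1.87 ± 0.15 on the log2 scale (adjusted p = 1.6e-15; 35.0% of transcripts called). The head genes summed to 4.05 to 7.80 CPM in HR at 0 hpa, 12.0 to 15.8 CPM at 24 hpa and 102 to 149 CPM at 48 hpa, and their part in this course was not tested.

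At the aboral-facing wound, where its values helped to choose it, MMP-24 was 304, 263 and 322 CPM at 3 hpa and 97.9, 127 and 128 CPM at 12 hpa. The log2 fold changes from 0 hpa were 3.02 ± 0.15 and 1.69 ± 0.15 (SE). It then held 40.7, 45.9 and 43.2 CPM at 24 hpa and 35, 57.2 and 55.1 CPM at 48 hpa. Both of the later groups overlapped with the 0 hpa libraries, with log2 fold changes of 0.11 ± 0.17 and 0.42 ± 0.16.

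Between the wounds MMP-24 was not called at 0, 3 or 12 hpa and was higher in HR at 24 and 48 hpa. The FR libraries here are those of the changes taken as used in the choice, so these tests are not independent of it. At 0 hpa FR spanned 23.8 to 46.9 CPM and HR 27 to 51.9 CPM, and they overlapped (HR against FR 0.24 ± 0.12 on the log2 scale, 95% interval 0.00 to 0.48, adjusted p = 0.281; 3.82% of transcripts called). Without library 1 of HR the difference was 0.33, still not called. Within batch 1 the log2 ratio of the means was 0.12 and the libraries overlapped, and within batch 2 it was 0.40 and they did not. At 3 hpa the difference was -0.35 ± 0.17 (95% interval -0.68 to -0.02, adjusted p = 0.281; 2.94% of transcripts called) and at 12 hpa it was 0.07 ± 0.17 (95% interval -0.27 to 0.40, adjusted p = 0.843; 8.84% called), and the wounds overlapped at both times. Without library 2 of HR the difference at 3 hpa was -0.13 (adjusted p = 0.807).

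At 24 hpa all HR libraries lay above all FR libraries, with a log2 difference of 1.22 ± 0.18 (adjusted p = 7.3e-07; 4.46% of transcripts called). The gap at 48 hpa was 1.68 ± 0.17 on the log2 scale, a 3.21-fold difference (adjusted p = 2.0e-11; 22.7% of transcripts called). The head genes were 12.0 to 15.8 CPM in HR and 8.05 to 11.3 CPM in FR at 24 hpa, and 102 to 149 CPM and 11.6 to 14.1 CPM at 48 hpa, and their part in either difference was not tested.

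The change since 0 hpa in HR less that in FR holds the FR changes taken as used in the choice, so it is described only. On the log2 scale it was below 0 at first, at -0.59 ± 0.20 after 3 h and -0.18 ± 0.21 after 12 h, and above 0 later, at 0.98 ± 0.21 after 24 h and 1.44 ± 0.21 after 48 h (SE). Over all tested transcripts such a difference was called for 0.0396%, 0.526%, 1.17% and 15.3% at these times.

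**Figure D2:**
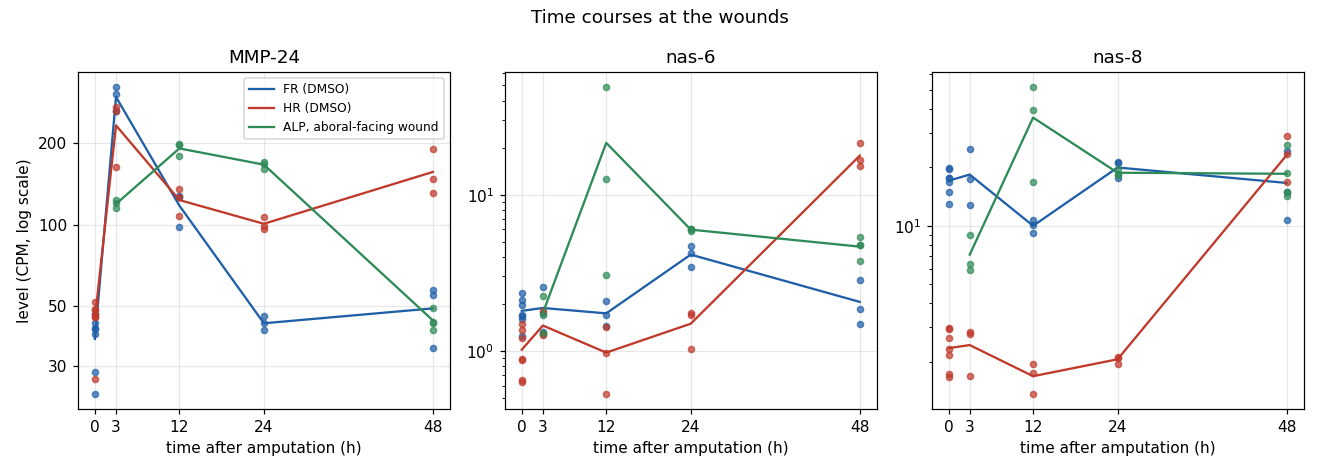
Level of each transcript (CPM, log scale) against hours after amputation in FR, HR and ALP libraries (points), with lines through the group means. MMP-24 stands at 163 to 322 CPM in both wounds at 3 hpa and separates from 24 hpa on, nas-8 in HR stays at 1.37 to 2.97 CPM up to 24 hpa and reaches 16.8 to 29.1 CPM at 48 hpa, and the ALP libraries of nas-6 are far apart at 12 hpa.

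With alsterpaullone the order of levels in time differed from that in FR, a comparison that helped to choose MMP-24 and is described only. At 3 hpa ALP held 123, 115 and 120 CPM, all below the FR libraries (log2 difference -1.31 ± 0.17, SE). At 12 hpa it held 197, 198 and 179 CPM and at 24 hpa 171, 161 and 168 CPM, all above FR, by 0.71 ± 0.17 and 1.95 ± 0.18. At 48 hpa ALP held 49.2, 40.7, 43.5 and 43.9 CPM and overlapped with FR (-0.14 ± 0.17).

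In uninjured tissue MMP-24 was high at both ends of the body. All Head libraries lay above all HR libraries at 0 hpa, by 3.46 ± 0.13 on the log2 scale, an 11-fold difference (adjusted p = 1.6e-31), in a comparison where 77.2% of tested transcripts were called (76.3% for Head against FR at 0 hpa). Foot libraries held 213, 189, 176, 186 and 178 CPM. They were above every 0 hpa library and below every Head library, 4.98-fold above FR at 0 hpa and 2.62-fold below Head as a description. Of all tested transcripts 66.1% were called between Foot and FR at 0 hpa, 66.0% between Foot and HR at 0 hpa, 67.1% between Foot and Head and 65.7% between HR at 48 hpa and Head, and nothing is read from these shares.

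At the cut, nas-8 was already unequal between the wounds, which is the comparison of the tissue just above and just below the middle of the body. It was 12.9 to 19.9 CPM in FR at 0 hpa (median 17.6 CPM) and 1.66 to 2.97 CPM in HR (median 2.33 CPM). No library of one group reached the range of the other, and HR was 7.30-fold lower (log2 fold change -2.87 ± 0.21, adjusted p = 9.0e-16). The log2 ratio of the means was -2.81 within batch 1 and -2.93 within batch 2. The HR levels here are of the kind taken as used in the choice, so this test is not independent of it. In the paper, both groups at 0 hpa also stood for the body column when head-specific genes were identified.

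The wound difference of nas-8 was present at each of the next 3 times, in tests with the same limit. At 3 hpa nas-8 was 12.8, 17.4 and 24.8 CPM in FR and 2.76, 2.85 and 1.69 CPM in HR (log2 fold change -2.90 ± 0.32, adjusted p = 1.3e-09). At 12 hpa it was 9.18, 10.7 and 10.1 CPM in FR and 1.74, 1.37 and 1.94 CPM in HR (-2.57 ± 0.37, adjusted p = 2.0e-06). The wounds did not overlap at either time. At 24 hpa it was 17.6, 20.9 and 21.3 CPM in FR and 2.10, 1.95 and 2.12 CPM in HR, the widest of these gaps (-3.27 ± 0.33, adjusted p = 9.1e-11). As a description, since it holds the HR changes, the change since 0 hpa in HR less that in FR was -0.03 ± 0.42, 0.30 ± 0.49 and -0.40 ± 0.44 after 3, 12 and 24 h.

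Gland cell enzymes did not all go the way of nas-8 at 0 hpa. The summed level of 5 gland cell enzymes (chymotrypsinogen B, 2 matches of chymotrypsin-C, carboxypeptidase A1 and lipase) was 96.0 to 129 CPM in FR and 76.3 to 86.4 CPM in HR at 0 hpa. One of them, the chymotrypsin-C match R074105c0g1_i01, was 16.5 to 23.0 CPM in FR and 5.51 to 7.85 CPM in HR, and carboxypeptidase A1 averaged 27.6 and 19.3 CPM. The other chymotrypsin-C match (R016874c0g3_i01) averaged 22.1 and 22 CPM, lipase 37.0 and 33.5 CPM, and chymotrypsinogen B 1.11 and 0.655 CPM, with overlapping libraries in each. In Head, where nas-8 was highest, the second chymotrypsin-C match, carboxypeptidase A1 and lipase averaged 1.98, 6.43 and 4.81 CPM, below their 0 hpa levels. The first chymotrypsin-C match and chymotrypsinogen B averaged 339 and 67.8 CPM there, above theirs, and the 5 enzymes summed to 383 to 449 CPM. Nerve peptide precursors summed to 62.7 to 76.0 CPM in FR and 33.9 to 43.8 CPM in HR, while the head genes overlapped at 4.26 to 8.56 and 4.05 to 7.80 CPM. The part of either cell type in the difference was not tested.

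Levels of nas-6 were lower and their wound comparison was not called at 0, 3, 12 or 24 hpa. At 0 hpa it was 1.25 to 2.34 CPM in FR (median 1.71 CPM) and 0.636 to 1.5 CPM in HR (median 0.891 CPM). These ranges overlapped over all libraries but not within either batch (log2 ratios of the means -0.78 and -0.87), and the log2 difference was -0.80 ± 0.47 (95% interval -1.75 to 0.16, adjusted p = 0.401). At 3 and 12 hpa the differences were -0.35 ± 0.67 and -0.81 ± 0.74 (adjusted p = 0.865 and 0.505), with 95% intervals of -1.70 to 1.00 and -2.29 to 0.68. As for nas-8, these tests and that at 24 hpa hold HR levels of the kind taken as used in the choice.

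At 24 hpa nas-6 was 4.26, 3.47 and 4.69 CPM in FR and 1.75, 1.71 and 1.03 CPM in HR. The libraries did not overlap, and the log2 difference of -1.47 ± 0.57 was not called (adjusted p = 0.127). It was called when only these groups were fitted (adjusted p = 2.5e-06), within batch 2 (-1.46, adjusted p = 2.0e-04) and on the FPKM values (-1.13, adjusted p = 4.6e-04). Behind these values stood 16 to 120 reads per library.

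In FR neither astacin match passed the test of change since 0 hpa at any time with all libraries in the fit. nas-8 held 10.7, 24.1 and 15 CPM at 48 hpa, around its 0 hpa range, with log2 changes of 0.16 ± 0.23, -0.72 ± 0.24, 0.14 ± 0.23 and -0.00 ± 0.23 after 3, 12, 24 and 48 h (adjusted p = 0.705, 0.0289, 0.679 and 1.00). All 3 libraries at 12 hpa lay below all 7 at 0 hpa, and this change was called with no batch term, on batch-adjusted counts and with only the groups compared. The log2 changes of nas-6 were 0.27 ± 0.62, 0.15 ± 0.59, 0.97 ± 0.49 and 0.36 ± 0.58 at the same times (adjusted p = 0.838, 0.912, 0.125 and 0.697). Its libraries at 24 hpa lay above all 7 at 0 hpa, also within batch 2, and this change was called within batch 2, with only the groups compared and on FPKM. Over all tested transcripts 11.3%, 9.93%, 22.1% and 20.0% were called at these times.

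With alsterpaullone nas-8 was lower than in FR at 3 hpa and higher at 12 hpa. At 3 hpa it was 5.90, 9.01 and 6.38 CPM in ALP against 12.8, 17.4 and 24.8 CPM in FR, with no overlap (log2 fold change -1.38 ± 0.27, 2.60-fold lower, adjusted p = 1.2e-04; 13.1% of transcripts called). At 12 hpa it was 51.6, 39.6 and 16.8 CPM against 9.18, 10.7 and 10.1 CPM, again with no overlap and now 3.61-fold higher (1.85 ± 0.24, adjusted p = 1.6e-07; 4.01% called). Without ALP library 1, the library that stood apart, the log2 difference was 1.52 (adjusted p = 2.4e-05). At 24 and 48 hpa ALP and FR overlapped, with log2 differences of -0.09 ± 0.24 (95% interval -0.57 to 0.39, adjusted p = 0.865; 10.9% called) and 0.15 ± 0.22 (95% interval -0.30 to 0.60, adjusted p = 0.689; 16.1% called).

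For nas-6 the same drug comparison was called at 12 hpa alone. At 3 hpa it was 1.70, 1.31 and 2.25 CPM in ALP, within the range of FR (log2 difference -0.09 ± 0.65, adjusted p = 0.946). At 12 hpa it was 48.7, 12.6 and 3.07 CPM against 1.44, 2.08 and 1.71 CPM in FR. Every ALP library lay above every FR library while the ALP libraries themselves lay far apart, and the log2 fold change was 3.62 ± 0.42 (12.3-fold, adjusted p = 1.0e-08). Without library 1 it was 2.20 (adjusted p = 3.4e-07).

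The order of the 3 ALP libraries at 12 hpa was the same for nas-6, nas-8, the head genes and the nerve peptides, with library 1 highest and library 3 lowest. The sum of the foot genes ran the other way, at 21.17, 26.66 and 29.79 CPM in libraries 1, 2 and 3. Of these genes only dlx2 had that order, at 10.4, 15.5 and 16.3 CPM. The others did not: nk2 was 2.35, 2.16 and 2.91 CPM, gata3 7.98, 6.75 and 9.25 CPM, and kiaa1958 0.440, 2.25 and 1.33 CPM. In the same libraries wnt3, a Wnt ligand of the head organizer, was 3.13, 1.08 and 0.971 CPM, and wnt7 was 1.81, 0.187 and 0.0511 CPM. The gland cell enzymes summed to 121.04, 111.26 and 112.72 CPM, inside the 108 to 128 CPM of FR at that time. Of these enzymes the chymotrypsin-C match R074105c0g1_i01 held 33.3, 28.2 and 25.6 CPM, above the 17.8 to 20.7 CPM of FR, and chymotrypsinogen B held 5.24, 1.36 and 0.920 CPM against 1.48 to 1.78 CPM. Nerve peptides were 139.7, 93.0 and 85.56 CPM against 78.6 to 83.3 CPM in FR, and the part of the head genes, the gland cells or the nerve cells was not tested.

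Later after the drug nas-6 stayed apart from FR without passing the test. At 24 hpa it was 6.06, 5.82 and 6.06 CPM in ALP against 4.26, 3.47 and 4.69 CPM in FR (log2 difference 0.51 ± 0.43, adjusted p = 0.489). At 48 hpa it was 5.34, 4.74, 3.76 and 4.78 CPM against 1.5, 2.83 and 1.86 CPM (1.2 ± 0.47, adjusted p = 0.0568). Neither pair of groups overlapped.

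**Figure D3:**
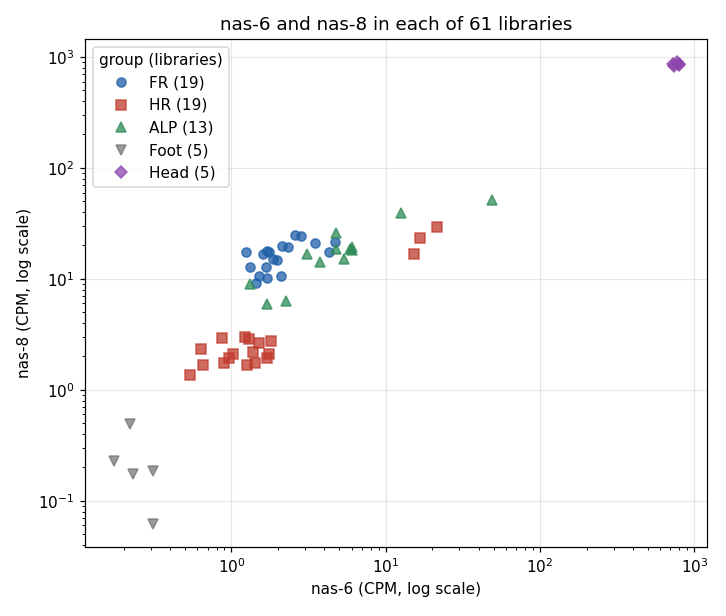
Level of nas-8 against that of nas-6 in each of the 61 libraries (CPM, both axes logarithmic), by group. The 5 Head libraries lie at 727 to 901 CPM on both axes, the 5 Foot libraries at 0.492 CPM or lower, and at a like level of nas-6 the FR libraries lie above the HR libraries of 0 to 24 hpa.

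At the oral-facing wound, where the values helped to choose both astacin matches, they were low until 24 hpa and high at 48 hpa. nas-6 was 16.7, 21.4 and 15.2 CPM at 48 hpa, 4.28 ± 0.42 above 0 hpa and 3.13 ± 0.42 above FR on the log2 scale. nas-8 was 23.3, 29.1 and 16.8 CPM, 3.35 ± 0.26 above 0 hpa. It overlapped there with FR, at 10.7 to 24.1 CPM (log2 difference 0.48 ± 0.23). From 0 to 48 hpa in HR the summed nerve peptides went from 33.9 to 43.8 CPM to 185 to 221 CPM, the gland cell enzymes from 76.3 to 86.4 CPM to 111 to 122 CPM and the head genes from 4.05 to 7.80 CPM to 102 to 149 CPM, and the part of any of them was not tested. These levels were 2.32% and 2.68% of the Head means, whereas MMP-24 in the same libraries stood at 31.7% of its Head mean.

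The proportion of nas-8 to nas-6, from CPM divided by the implied lengths, separated the wounds at 0 hpa. Its median was 10.1 in FR at 0 hpa (8.17 to 15.2) and 2.63 in HR at 0 hpa (1.71 to 3.96), and the libraries did not overlap. It was 1.47 in HR at 48 hpa (1.19 to 1.51) and 1.21 in Head (1.16 to 1.29). At 24 hpa it was 4.9 in FR (4.46 to 6.5) and 3.43 with alsterpaullone (3.24 to 3.47). At 48 hpa it was 8.71 in FR (7.7 to 9.19) and 4.15 with alsterpaullone (3.03 to 5.95). In the Foot it ranged from 0.216 to 2.43, on counts of 1 to 9 reads.

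**Figure D4:**
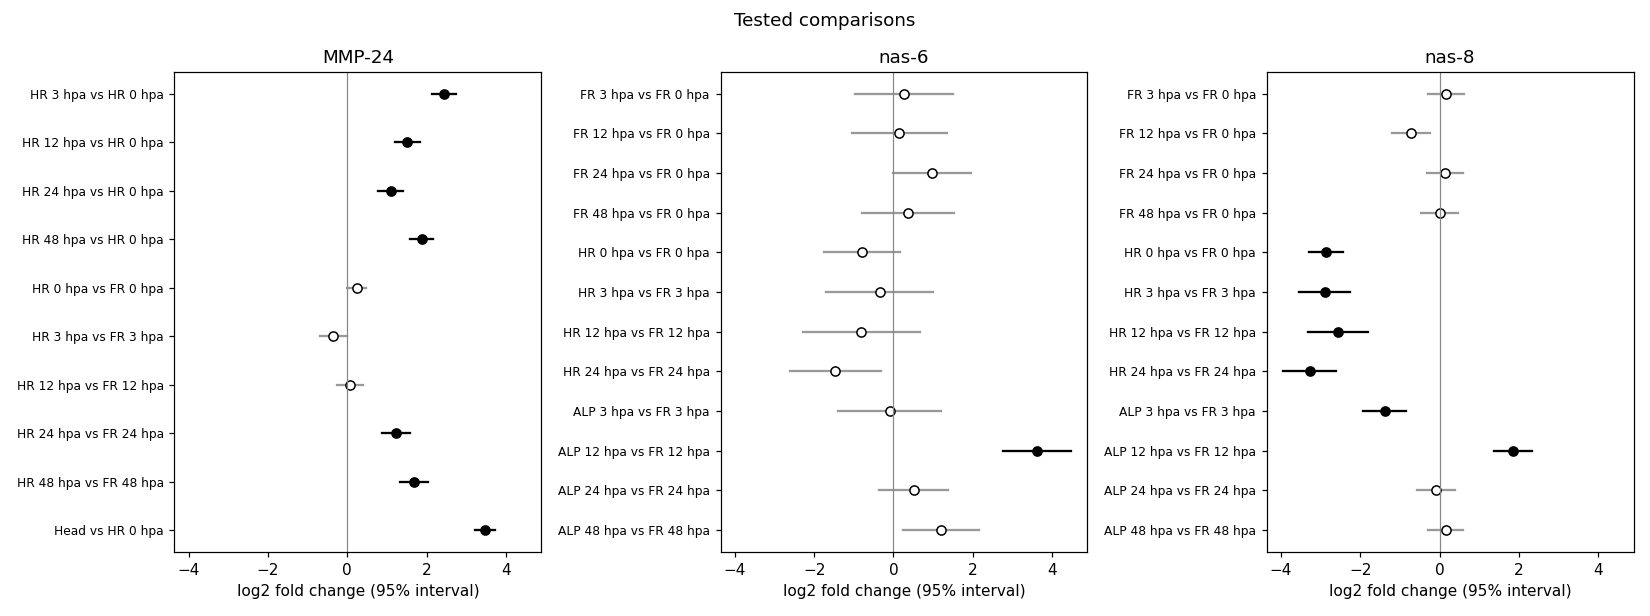
Log2 fold change of each transcript (points) in every tested comparison, with its 95% interval as a bar, filled points for comparisons that were called and open points for those that were not. 7 of the 10 tested comparisons of MMP-24, 1 of 12 of nas-6 and 6 of 12 of nas-8 were called.

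Over the means of the 16 groups, nas-6 and nas-8 had a Pearson r of 0.91 on the log2 scale (0.83 without Head), MMP-24 and nas-6 one of 0.43 (0.03 without Head), and MMP-24 and nas-8 one of 0.23 (-0.18 without Head). Among 14414 transcripts compared in this way, the pattern of MMP-24 was most like those of R033363c0g1_i02, which has no protein name (r = 0.9358), and the match of Myosin-IIIb (R039000c0g1_i06, r = 0.9190). The named matches nearest to nas-6 were Stabilin-2 (R040586c2g2_i01, r = 0.9649), Collagen alpha-1(XXI) chain (R032501c0g1_i01, r = 0.9630) and Ephrin type-A receptor 4 (R040394c0g1_i02, r = 0.9591). Nearest to nas-8 were another nas-8 match (R036451c0g2_i03, r = 0.9904), R032632c0g2_i03, which has no protein name (r = 0.9822), a nas-13 match (R035386c0g1_i01, r = 0.9707), a further nas-8 match (R036334c0g2_i02, r = 0.9691) and the chymotrypsin-C match named above (r = 0.9690). These r describe 16 group means that share libraries and depth, and they carry no p.

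The 3 belong to a larger set: 43 other metalloproteinase matches (24 astacins, 10 matrix metalloproteinases and 9 of the ADAM and ADAMTS families, membrane and secreted enzymes) were listed, and all 43 were tested. The list comes from the study's tables, which hold mostly transcripts it called on these samples, so its counts are not independent evidence of a direction. At 0 hpa 6 of 43 were higher in HR than in FR and 9 lower, 34.9% of the list beside 3.82% of all tested transcripts. Those with the smallest p were all among the lower. They were nas-30 (R035594c1g1_i01, -2.02 ± 0.10 on the log2 scale, adjusted p = 3.4e-23) and nas-13 (R035386c0g1_i01, -2.67 ± 0.13, adjusted p = 4.1e-23). Next came the nas-8 matches R036334c0g2_i02 (-1.60 ± 0.09, adjusted p = 1.8e-21) and R036451c0g2_i03 (-3.31 ± 0.23, adjusted p = 1.4e-16). The median log2 difference of the 24 astacins was -0.09, beside -0.00 over all tested transcripts.

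After the cut in HR, 7 of 43 were higher and 2 lower at 3 hpa (20.9% of the list beside 10.6% of all tested transcripts), and 25 were higher and 5 lower at 48 hpa (69.8% beside 35.0%). The match of bone morphogenetic protein 1 (R038495c0g2_i08), in vertebrates an astacin that trims procollagen, rose by 2.75 ± 0.14 at 3 hpa (adjusted p = 4.8e-22) and was 3.32 ± 0.14 above 0 hpa at 48 hpa (adjusted p = 4.3e-27). With alsterpaullone 1 of 43 was higher and 7 lower than FR at 3 hpa (18.6% beside 13.1%), and 7 were higher and 1 lower at 12 hpa (18.6% beside 4.01%). BMP1 was among both, at -1.27 ± 0.15 (adjusted p = 5.2e-09) and 1.36 ± 0.14 (adjusted p = 5.3e-10). In Head 33 were higher and 6 lower than in HR at 0 hpa, 90.7% of the list beside 77.2% of all tested transcripts.

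Both listed inhibitors of these enzymes were tested. The match of metalloproteinase inhibitor 3 (R026013c0g1_i01), a secreted protein that blocks metalloproteinases in vertebrates, had group means of 1.52 CPM in HR at 0 hpa, 1.25 CPM at 3 hpa, 13.6 CPM at 12 hpa, 17.9 CPM at 24 hpa and 20.2 CPM at 48 hpa. The log2 change at 3 hpa was -0.24 ± 0.27 (adjusted p = 0.620), and from 12 hpa it was 3.19 ± 0.20 or more (adjusted p = 2.5e-18 at 12 hpa). At the aboral-facing wound at 3 hpa it averaged 12.0 CPM with alsterpaullone and 1.84 CPM without, a log2 difference of 2.69 ± 0.23 (adjusted p = 1.2e-12), where MMP-24 and nas-8 were lower with the drug. The match of RECK (R035479c0g1_i03), a membrane protein that restrains matrix metalloproteinases in mammals, fell by 0.80 in HR at 48 hpa against 0 hpa on the log2 scale (adjusted p = 2.4e-15). Its group mean was 210 CPM in Foot and 27.1 CPM in Head, the reverse order of MMP-24.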

How the data were processed

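RNA was measured in 61 libraries in 16 groups set by the labels. The authors trimmed the reads and mapped them to a reduced *H. oligactis* transcriptome with Bowtie2 and RSEM, and they deposited expected counts per transcript, 5.33% of them not whole, which were rounded to whole numbers here. RSEM shares reads between near-identical transcripts, so levels of astacin matches alike in sequence are uncertain. The deposited FPKM, 35 columns used and 4 of HR at 3 hpa not used, set levels per length and served as an alternative. Of the count columns 30 matched a single sample and 31 a group only.

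edgeR 4.0.16 (R 4.3.3) tested the 17676 transcripts that filterByExpr kept (minimum count 10, minimum total 15) with TMM scaling, group and batch (0 or 1, and 0.4 for Foot and Head, whose columns show no batch) as terms, all 61 libraries and 44 residual degrees of freedom. Tests were two-sided, and a transcript was called at a Benjamini-Hochberg adjusted p under 0.01 over all transcripts. Each library was left out in turn with the transcripts and dispersion trend of the whole fit. The other alternatives were DESeq2 1.42.0 (its size factors, and its Wald test), no low-count filter, no batch term, ComBat_seq counts (sva 3.50.0), glmTreat with a fold of 1.2, only the groups compared, a replicate block, log2(FPKM + 1) with limma 3.58.1 and, chosen after seeing the data, each batch alone. Named were the 3 transcripts, the inhibitors, transcripts of the other lists with the smallest p, and those most alike in pattern (prior count 2). The members and lists were chosen with earlier results of these data known. The difference of changes since 0 hpa between the wounds was planned as a test and is given as a description, because it holds a change taken as used in the choice. Libraries are pools of animals, and p-values measure the spread between pools.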

Additional observations from a re-analysis of the deposited data

Results flagged for a closer look

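In HR at 0 hpa, library 1 held 27 CPM of MMP-24, far below the other 6, which lay between 45.5 and 51.9 CPM. Its gap to the nearest library was 0.743 of the whole range. Library 1 of FR at 0 hpa was also the lowest of its group at 23.8 CPM. Of 15 sets of 4 to 10 libraries examined in this way 1 had such a library, and chance gives about 1 in 20. Without that HR library the rise of MMP-24 at 3 hpa was 2.31 on the log2 scale.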

How the results depend on the processing

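Of 34 tested results 14 were called, and all 14 kept their direction and their call under every alternative run. The fold of nas-6 in ALP at 12 hpa ranged from 2.20 to 4.13 on the log2 scale with a library left out.

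4 results that were not called passed the threshold elsewhere. For nas-6 in HR against FR at 24 hpa this held within batch 2 (-1.46), with only the groups compared (-1.47), with the replicate block (-1.47, adjusted p = 1.7e-05) and on FPKM (-1.13). For nas-6 in FR at 24 hpa against 0 hpa it held within batch 2 (0.96), with the groups compared (0.94) and on FPKM (0.75), and for nas-6 in ALP against FR at 48 hpa with the groups compared (1.19). For nas-8 in FR at 12 hpa it held with no batch term (-0.78), on ComBat_seq counts (-0.75) and with the groups compared (-0.71).

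Signs changed in 7 results that were not called, all near 0. nas-6 in FR at 12 hpa was -0.08 with no batch term, and nas-8 in FR at 48 hpa was 0.00 with those size factors and with no filter, 0.01 with the DESeq2 Wald test, 0.03 within batch 1 and 0.02 with the groups compared. Over the fits that left out 1 library, MMP-24 in HR against FR at 12 hpa ranged from -0.05 to 0.15. The ranges of nas-6 were -0.03 to 0.45 in FR at 3 hpa, -0.03 to 0.30 in FR at 12 hpa and -0.32 to 0.21 in ALP against FR at 3 hpa. Those of nas-8 were -0.12 to 0.35 in FR at 3 hpa, -0.37 to 0.25 in FR at 48 hpa and -0.10 to 0.52 in ALP against FR at 48 hpa.

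Counts of called transcripts moved by over 1.5 times with glmTreat in 21 of 27 comparisons (HR against FR at 0 hpa from 676 to 282) and with only the groups compared in 10 of 27 (HR against FR at 24 hpa from 789 to 1963). Same-numbered libraries deviated together by r of 0.04 to 0.37 at 0 hpa, where 3 of 7 were most alike with their own number. At 24 hpa r was 0.00 to 0.01 for HR and FR (1 of 3) and -0.00 to 0.02 for ALP and FR (2 of 3). Whether the numbers pair the samples is not settled by these r. In the groups compared alone, HR against FR at 24 hpa had 1963 called transcripts without the replicate block and 1929 with it, and the block changed no call of the 3 transcripts at 0 or 24 hpa beside that fit. No paired analysis was possible at 3, 12 and 48 hpa or with Foot and Head because the columns of at least 1 group in each comparison match no single sample. In HR up to 24 hpa nas-6 rests on 9 to 42 counts per library, which limits its precision.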
